A study of Mus musculus with 8 samples.

Results

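Liver RNA levels of 10 genes of hepcidin control and iron handling were measured in mice after 4-hydroxyphenylacetic acid (4-HPAA), a metabolite made by gut microbes, or normal saline had been infused into the portal vein. The genes were chosen by name for their roles, with earlier results of these data known: Hamp, Hamp2, Bmp6, Id1, Tfr2, Tfrc, Trf, Slc40a1, Fth1 and Ftl1. They are 10 of 35975 genes in the count table, and all 10 were among the 12883 tested, for which each library had to hold 10 or more counts. Each group held 4 C57BL/6 mice (C57BL/6J in the methods of the study), each mouse giving 1 liver library, and the infusion ran for 2 weeks. The pump was filled with 55 mM 4-HPAA dissolved in saline in the treated group and with saline alone in the controls. Mice of both groups carried a portal vein catheter and a subcutaneous osmotic pump, ate chow and lived alone after surgery, so no library shows a liver without surgery. They were bought at 8 to 10 weeks of age. The study used mice of both sexes and the sample labels do not give the sex of a mouse, although the summed level of 4 Y-linked genes lay between 152 and 179.8 CPM (counts scaled to a common library total) in all 8 libraries.

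Total estimated counts ranged from 29559978 to 30673398 per library and did not separate the groups (exact permutation test, two-sided, p = 0.343). Markers of hepatocytes were abundant throughout, with a summed level of 99509 to 132543 CPM over 8 genes. In all, 2 libraries stood apart for red blood cell markers. The sum of 11 such markers was 2674 CPM in normal saline replicate 2 against 262 to 389 CPM in the other saline mice, and 751 CPM in 4-HPAA replicate 4 against 164 to 176 CPM in the other treated mice. Because whole liver was sequenced, fewer cells of a type and less RNA per cell cannot be told apart in any value given here.

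Hepcidin, the peptide encoded by Hamp, is the hormone that limits iron entry into blood. Hepatocytes secrete it, and it binds ferroportin (Slc40a1), the cellular iron exporter, which is then internalised and degraded. Its transcription is driven mainly by bone morphogenetic protein (BMP) ligands acting through SMAD factors, with a further input from interleukin-6 through STAT3, and is held down when red cell production is high. Transferrin (Trf) carries iron in plasma, the transferrin receptors Tfrc and Tfr2 take it up or sense it, and ferritin, built from Fth1 and Ftl1 subunits, stores it.

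Mice have a second hepcidin gene, Hamp2, a near copy of Hamp on the same strand of chromosome 7. Hamp lies at chr7:30942368-30944032 and Hamp2 at chr7:30922372-30924681, both on the minus strand (GRCm38). The 250 bases before each start site are shown because the 2 genes differed in level and in their spread between mice. They are taken from RefSeq (GRCm38.p6), at chr7:30944030-30944279 for Hamp and chr7:30924182-30924431 for Hamp2, and read 5′ to 3′ along the gene. For Hamp2 the window precedes the transcript ENSMUST00000074671, which held 99.7% of the counts of the gene in saline mice and 99.9% in treated mice on average, while a minor transcript extends the annotated gene upstream, past the window. Capitals mark GGCGCC, the core of the BMP-responsive element, and TTCNNNGAA, the consensus bound by STAT factors.
Hamp: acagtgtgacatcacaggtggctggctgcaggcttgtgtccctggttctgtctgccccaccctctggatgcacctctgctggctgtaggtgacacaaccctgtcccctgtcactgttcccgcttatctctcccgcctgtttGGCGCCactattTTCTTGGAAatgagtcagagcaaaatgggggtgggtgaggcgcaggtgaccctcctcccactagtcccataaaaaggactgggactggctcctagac
Hamp2: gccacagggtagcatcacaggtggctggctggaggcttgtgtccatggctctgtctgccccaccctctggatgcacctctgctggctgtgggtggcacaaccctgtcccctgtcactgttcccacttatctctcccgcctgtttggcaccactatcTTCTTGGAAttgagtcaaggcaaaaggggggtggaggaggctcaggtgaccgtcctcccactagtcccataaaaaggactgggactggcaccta
The sequences matched at 227 of 247 aligned bases (91.9%), with 20 substitutions. The Hamp window held GGCGCC at bases 142 to 147, or -109 to -104 from the start site. The aligned stretch of the Hamp2 window carried the substitution G145A, counted from 1 at the 5′ end of the Hamp sequence as printed, and held no GGCGCC. TTCTTGGAA stood in both, at bases 154 to 162 of Hamp and 157 to 165 of Hamp2. Both strands were searched, and GGCGCC and TTCNNNGAA did not overlap. Among 32851 promoter windows of the same length, 9.59% held GGCGCC and 7.02% held TTCNNNGAA. Of the 10 genes, 7 had an entry, with 11 windows in all; GGCGCC occurred in those of Hamp and Tfrc and TTCNNNGAA in those of Hamp and Hamp2. GATAA, the core bound by GATA factors, occurred in windows of Hamp, Hamp2, Fth1 and Tfr2 and in 22.6% of all windows, and TATAAAA in none of the 11 windows and in 4.98% of all. Such matches describe letters and were not tested as binding sites.

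None of the 10 genes differed between the groups beyond the spread of the mice. With edgeR's quasi-likelihood test and Benjamini-Hochberg adjustment over all genes tested, 0 of 10 passed an adjusted p of 0.05, as did 0% of all genes (0 of 12883, while DESeq2 called 2 and limma-voom 0 of them). At an unadjusted p under 0.05 the count was 0 of 10, against 1.75% of all genes. That count became 1 with any single saline library left out (Tfrc without replicate 1, Hamp2 without replicate 2 or 3, Slc40a1 without replicate 4) and, for Hamp2, with both libraries rich in red cell markers left out. In all 10 the values of the 2 groups overlapped, while the groups did not overlap for 1.2% of all genes. The mean was higher with 4-HPAA for 4 of the genes and lower for 6, with a median log2 fold change of -0.08 (all genes, 0.001) and a median size of 0.15 (all genes, 0.07). All log2 fold changes are 4-HPAA minus normal saline, each adjusted p of the 10 was 1.00, and DESeq2, limma-voom and the other settings tried also called 0 of 10.

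**Figure D1:**
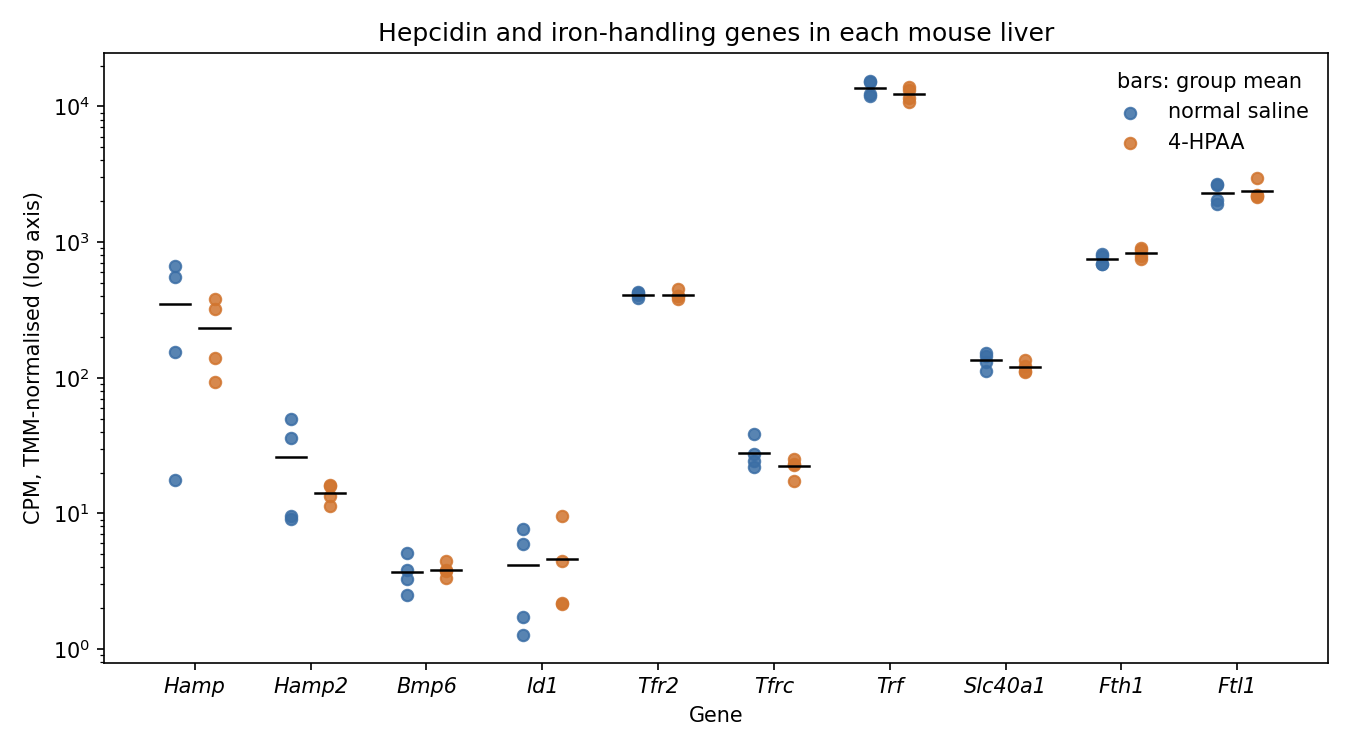
Level of each gene in each mouse liver (CPM, TMM-normalised, log axis). Points are mice, 4 for each group, and bars are group means. Hamp spans 17.6 to 669.8 CPM and Id1 1.27 to 9.62 CPM, while Tfr2 stays between 381 and 450.3 CPM, and the groups overlap for every gene.

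Hamp ranged 38.0-fold between mice of the saline group alone. With normal saline it stood at 669.8, 17.6, 155 and 553 CPM in replicates 1 to 4, and with 4-HPAA at 93.4, 139, 381 and 321 CPM. Saline mice thus held both the highest and the lowest value, and all treated mice lay between them. Group means were 349 ± 312 CPM (SD, n = 4) and 234 ± 139 CPM (SD, n = 4), and the log2 fold change was -0.58 (SE 0.84, 95% interval -2.45 to 1.30, edgeR quasi-likelihood adjusted p = 1.00). The sign of this difference was not fixed, since limma-voom gave 0.17. Without normal saline replicate 1 the difference was -0.05, and without normal saline replicate 2 it was -0.98.

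Few genes of the liver varied as widely as Hamp in these mice. Its range over the 8 libraries was 5.24 on the log2 CPM scale, rank 5 of 12883, where the median gene spanned 0.51. Its SD within groups was 1.84 (rank 7), against a median of 0.18. The wider ranges belonged to Cyp2a4 (8.78), Fos (6.55) and the globin genes Hbb-bt (5.4) and Hbb-bs, which had the same rounded range as Hamp; all but Hbb-bs were named after their values were seen. Among the 3618 genes with a mean log2 CPM of at least 5, Hamp ranked 2 by range.

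Hamp2 varied less and at a lower level. The saline mice were at 49.8, 9.06, 9.61 and 36.1 CPM and the treated mice at 16.1, 11.3, 15.9 and 13.5 CPM. Replicates 1 and 4 of the saline group stood above every other mouse, and the remaining saline mice below every treated mouse. Means were 26.1 ± 20.2 CPM (SD, n = 4) and 14.2 ± 2.27 CPM (SD, n = 4), with a log2 fold change of -0.88 (SE 0.50, 95% interval -1.99 to 0.23, edgeR quasi-likelihood adjusted p = 1.00). The difference was -0.36 without normal saline replicate 1 and -0.50 with limma-voom. Its range of 2.45 on the log2 scale ranked 123.

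The share of hepcidin counts assigned to Hamp2 was not constant. Hamp2 held 6.92%, 33.9%, 5.85% and 6.13% of the CPM of both genes in the saline mice and 14.7%, 7.50%, 4.02% and 4.04% in the treated mice. The largest share was that of the mouse with the lowest Hamp, and the next that of 4-HPAA replicate 1, which had the next lowest. Of the 380 different 31-base words in Hamp transcripts, 128 (33.7%) also occur in Hamp2, so reads from the shared stretches were divided by estimate and a low Hamp2 value is uncertain. With Hamp2 added to Hamp, and the ferritin pseudogenes to Fth1 and Ftl1, none of the remaining 9 genes was called and the log2 fold change of the hepcidin sum was -0.60 (SE 0.79).

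**Figure D2:**
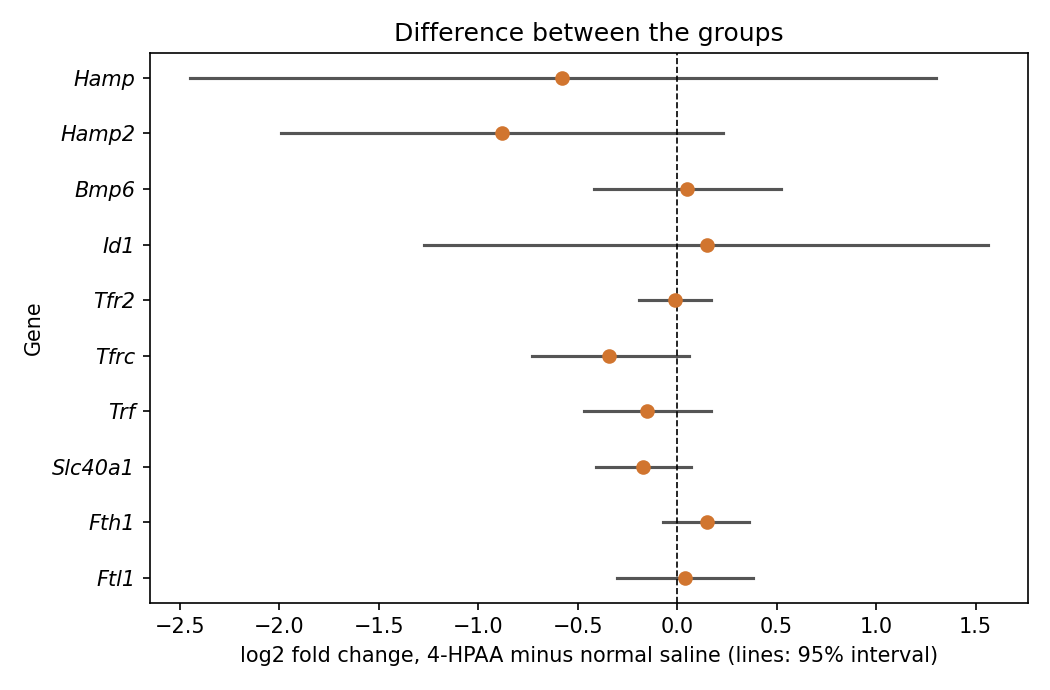
Log2 fold change of each gene, 4-HPAA minus normal saline (points), with its 95% interval (lines) from edgeR's quasi-likelihood fit over 4 mice a group; the dashed line marks no difference. Every interval includes 0, and it is widest for Hamp (-2.45 to 1.30) and narrowest for Tfr2 (-0.19 to 0.17).

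Bmp6, the BMP ligand that liver endothelial cells make in response to iron, was low and similar in the groups. Its gene is at chr13:38345107-38500302, and its level was 5.13, 2.50, 3.84 and 3.30 CPM in the saline mice and 3.74, 4.43, 3.82 and 3.32 CPM in the treated mice. The treated mice lay inside the range of the saline mice. Means were 3.69 ± 1.10 CPM and 3.83 ± 0.459 CPM (SD, n = 4 each), and the log2 fold change was 0.05 (SE 0.21, 95% interval -0.42 to 0.52, edgeR quasi-likelihood adjusted p = 1.00). Bmp2, the other endothelial ligand, was between 7.48 and 16.7 CPM, with a log2 fold change of 0.17 (SE 0.26). It was named after its values were seen.

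Id1, a direct target of BMP and SMAD signalling that encodes an inhibitor of basic helix-loop-helix factors, varied 7.58-fold between mice. The gene spans chr2:152736251-152737410. Its levels were 5.90, 1.27, 1.71 and 7.69 CPM with normal saline and 2.13, 2.17, 4.43 and 9.62 CPM with 4-HPAA. Replicates 1 and 4 of the saline group and 3 and 4 of the treated group were the high mice, and the others were at 2.17 CPM or lower. Means were 4.14 ± 3.16 CPM and 4.59 ± 3.52 CPM (SD, n = 4 each), with a log2 fold change of 0.15 (SE 0.63, 95% interval -1.27 to 1.56, edgeR quasi-likelihood adjusted p = 1.00). Leaving out both libraries rich in red cell markers turned this to -0.81. Its range of 2.86 on the log2 scale ranked 69.

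The mice with high Id1 were the mice with high Hamp. Over the 8 mice, log2 CPM of Hamp and Id1 gave Pearson r = 0.84 (exact permutation test, two-sided, p = 0.00627, adjusted over 8 relations 0.0251) and Spearman rho = 0.76 (p = 0.0368 by the same exact permutation test, adjusted 0.122). The 8 relations were chosen with earlier results of these data known, and the adjustment does not cover that choice. The r was 0.85 without normal saline replicates 1 and 2, the mice farthest from the median of Hamp. After the group means were subtracted it was 0.84. The adjusted p of r rose above 0.05 when any of 4 single mice was left out, with r between 0.81 and 0.90 over all 8 such fits. On Id1 the mice split into 4 low and 4 high with a gap between 2.17 and 4.43 CPM, and the relation was not tested within those sets, since 4 mice are too few.

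**Figure D3:**
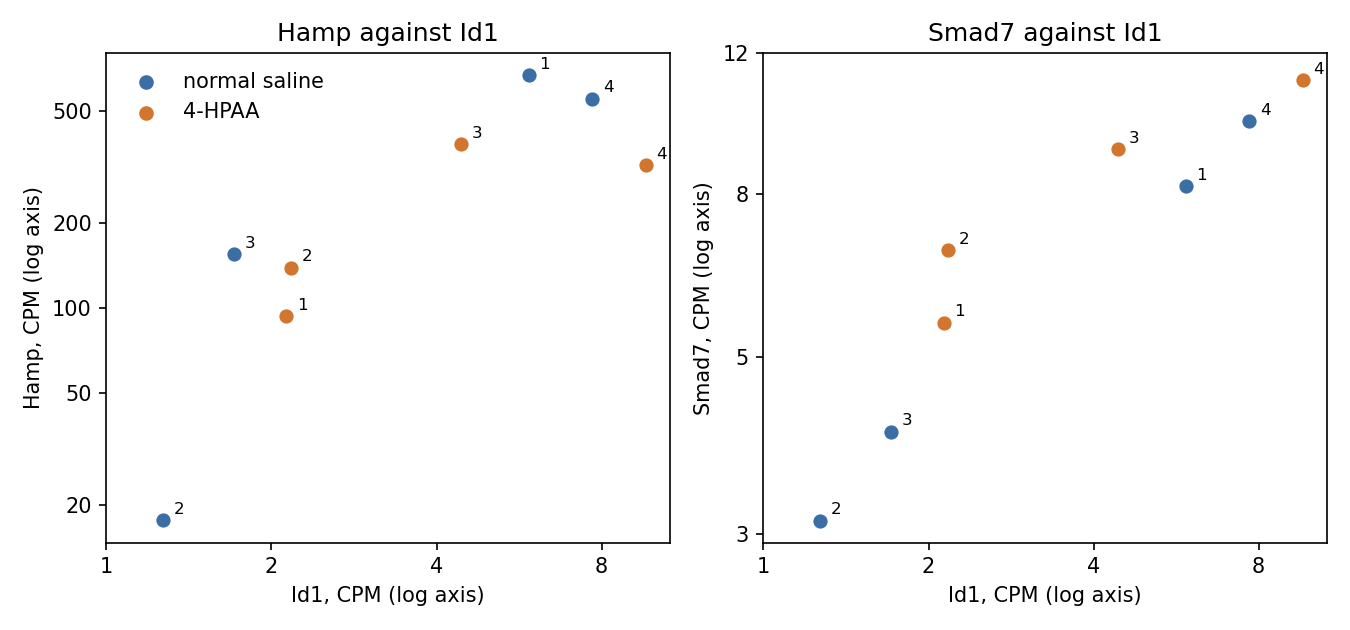
Hamp (left) and Smad7 (right) against Id1 in each mouse liver, in CPM on log axes. Points are mice, colored by group and numbered by replicate. Normal saline replicate 2 is lowest on all 3 genes, and the 4 mice above 4 CPM of Id1 are also the upper 4 for Hamp and Smad7.

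Smad7, an inhibitory SMAD induced by the pathway it restrains, also followed Id1. By r with Id1 over the 8 mice it ranked 22 among all other tested genes. It was at 8.18, 3.12, 4.03 and 9.86 CPM in the saline mice and 5.52, 6.80, 9.09 and 11.1 CPM in the treated mice. Its r with Id1 was 0.93 (exact permutation test, two-sided, p = 0.000794, adjusted 0.00635) and rho was 0.98 (exact permutation p = 0.000397, adjusted 0.00317), with r = 0.90 without the 2 mice farthest from the median of Id1 and 0.97 after subtracting group means. Between groups its log2 fold change was 0.37 (SE 0.36, edgeR quasi-likelihood adjusted p = 1.00).

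Smad6, the related inhibitory SMAD, had a lower r with Id1. Its values were 2.53, 2.44, 2.30 and 2.40 CPM and 2.03, 2.70, 3.85 and 2.83 CPM, so that 4-HPAA replicate 3 was highest and the saline mice nearly equal. That r was 0.36 (exact permutation test, p = 0.41, adjusted 0.41). The difference between this r and that of Smad7 was not tested.

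The other relations of Hamp chosen for testing did not pass adjustment over the 8. With Hamp2, r was 0.74 (exact permutation test, p = 0.0352, adjusted 0.0939) and 0.65 without the 2 farthest mice. With Bmp6, r was 0.63 (exact permutation p = 0.101, adjusted 0.199) and turned to -0.62 without normal saline replicates 1 and 2. It was 0.51 without replicate 1 alone and 0.09 without replicate 2 alone, so it rests mostly on normal saline replicate 2. With Tfrc, r was -0.60 (exact permutation p = 0.125, adjusted 0.199) and 0.27 without both mice. It was -0.58 without normal saline replicate 1 alone and 0.13 without replicate 2 alone. The r of Hamp was -0.43 with Tfr2 and -0.44 with Slc40a1 (exact permutation p = 0.292 and 0.285, each adjusted to 0.334).

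Atoh8, Id2 and Id3, further targets of BMP signalling, showed the same split into 4 high and 4 low mice. The order within it was not the same. These genes were looked at after their values were seen, so their values are descriptions. Smad6 did not show the split, with 2.70 CPM in 4-HPAA replicate 2 against 2.40 CPM in normal saline replicate 4. Nor did Hamp2, with 16.1 CPM in 4-HPAA replicate 1 against 13.5 CPM in 4-HPAA replicate 4. The share of all genes with this split was not counted. Atoh8, a transcription factor that acts on the Hamp promoter, was at 14.6, 3.05, 5.61 and 10.7 CPM in the saline mice and 6.35, 6.77, 11 and 7.62 CPM in the treated mice. Id2, a relative of Id1, was at 54.1, 29.1, 34.4 and 60.5 CPM and 39.4, 34.9, 63.2 and 72.2 CPM. Id3, another relative, was at 17.5, 8.06, 9.74 and 20.8 CPM and 16.2, 13, 24.4 and 34.3 CPM. For all 3, normal saline replicates 1 and 4 and 4-HPAA replicates 3 and 4 stood above the other 4 mice, and normal saline replicate 2 was lowest. Id3 had the highest log2 fold change of the hepcidin signalling list, 0.65 (SE 0.36, edgeR quasi-likelihood adjusted p = 1.00), and was at 0.34 without 4-HPAA replicate 4 and 0.15 without both libraries rich in red cell markers. Id2 and Atoh8 were at 0.23 (SE 0.28) and -0.09 (SE 0.40).

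**Figure D4:**
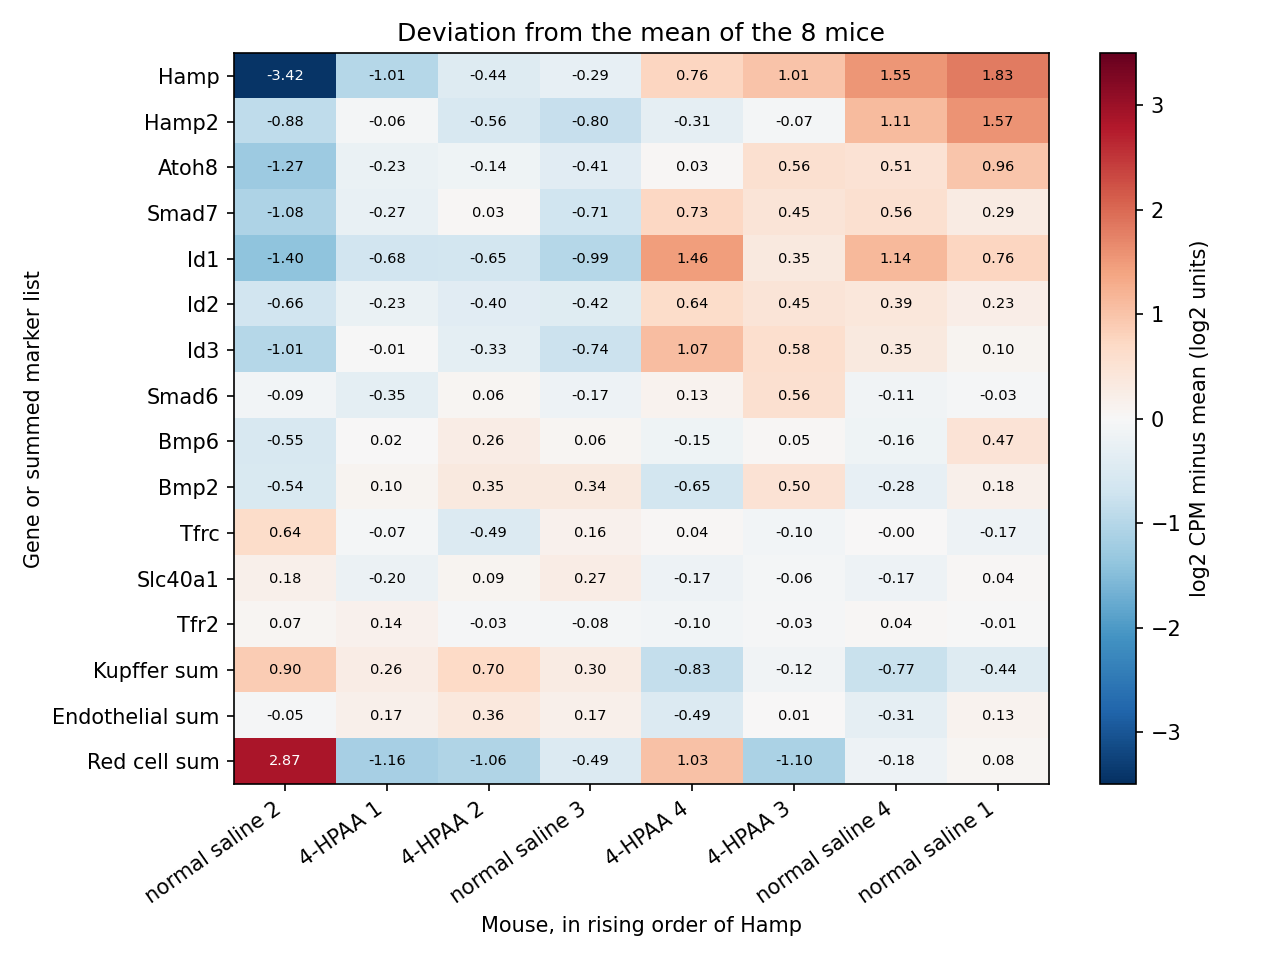
Deviation of each gene or summed marker list from its mean over the 8 mice (log2 CPM, color and printed value), with mice ordered from the lowest to the highest Hamp. Hamp runs from -3.42 to 1.83, Id1, Id2, Id3, Smad7 and Atoh8 are higher in each of the last 4 mice than in any of the first 4, and the Kupffer sum is above its mean in the first 4 mice and below it in the last 4.

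Markers of Kupffer cells, the liver macrophages, moved with this split. The summed level of 11 Kupffer cell markers was 406, 267, 260.5 and 353 CPM in the mice with low Hamp (normal saline replicates 2 and 3, 4-HPAA replicates 1 and 2) and 159.8, 127, 199 and 122 CPM in those with high Hamp. Those sets did not overlap, and none of the 11 markers was at 0 in any library. Of the 11, 8 were highest in normal saline replicate 2. By mouse, 6 were lowest in 4-HPAA replicate 4, 4 in normal saline replicate 4 and 1 in 4-HPAA replicate 1, which had low Hamp. The sets were drawn from these same data, and the share of all genes that part them in this way was not counted. The part of the Kupffer markers in the spread of Hamp was not tested. Markers of sinusoidal endothelial cells, the source of Bmp6, summed to 172 to 309.6 CPM over 9 genes and were lowest in 4-HPAA replicate 4 for 8 of the 9, and their sums overlapped between the mice with low and with high Hamp.

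Normal saline replicate 2, the mouse with the lowest Hamp, Hamp2, Bmp6 and Id1, was the highest for all 11 red blood cell markers. Slc4a1, the red cell anion exchanger, had 1423 estimated counts there and 0 to 15 in the other mice. Erfe, the erythroblast hormone that lowers hepcidin, had 9 estimated counts there and 0 to 2 elsewhere, too few to test. Hmox1, the enzyme that breaks down heme, was at 18.1 CPM in that mouse against 5.86 to 12.5 CPM in the others. These 3 genes were named after their values were seen. 4-HPAA replicate 4, the other library rich in red cell markers, had the highest Id1 and a Hamp level of 321 CPM, so red cell markers and Hamp did not share an order over the mice. Among 14 genes listed as acute phase markers, many of which interleukin-6 induces as it does hepcidin, 9 were highest in 4-HPAA replicate 1, a mouse with low Hamp. Another 2, Lcn2 among them, were highest in normal saline replicate 1, the mouse with the highest Hamp. The sums over the 14 genes were 15872, 13574, 16769 and 14260.4 CPM with low Hamp (normal saline replicates 2 and 3, 4-HPAA replicates 1 and 2). With high Hamp they were 15794, 16513, 13737 and 14692 CPM (normal saline replicates 1 and 4, 4-HPAA replicates 3 and 4). The part of red cells or of an acute phase response in the spread of Hamp was not tested.

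Tfr2, the transferrin receptor by which hepatocytes sense iron-loaded transferrin, was the steadiest of the 10. It lies at chr5:137569840-137587481 and stood at 406, 429, 387 and 420 CPM in the saline mice and 450.3, 401, 402 and 381 CPM in the treated mice. Both ends of the range belonged to treated mice. Means were 411 ± 18.2 CPM and 408 ± 29.4 CPM (SD, n = 4 each), with a log2 fold change of -0.01 (SE 0.08, 95% interval -0.19 to 0.17, edgeR quasi-likelihood adjusted p = 1.00). Its SD within groups ranked 11712 of 12883.

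Tfrc, the receptor that imports transferrin-bound iron and whose mRNA is stabilised when cells lack iron, had the smallest p of the 10. At chr16:32608920-32632794, it was at 21.8, 38.3, 27.4 and 24.5 CPM with normal saline and 23.3, 17.4, 22.8 and 25.3 CPM with 4-HPAA. The highest value was that of normal saline replicate 2, which is also the library richest in red cell markers, and immature red cells are known to carry much of this receptor. Means were 28.0 ± 7.20 CPM and 22.2 ± 3.36 CPM (SD, n = 4 each), with a log2 fold change of -0.34 (SE 0.18, 95% interval -0.73 to 0.06, edgeR quasi-likelihood adjusted p = 1.00). Without normal saline replicate 2 it was -0.15. The part of red cells in this value was not tested.

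Trf, the plasma iron carrier made by hepatocytes, was the most abundant of the 10. The gene is at chr9:103204001-103230444, with 12351, 15482, 11862 and 15224 CPM in the saline mice and 13276, 11625, 10763 and 13829 CPM in the treated mice. The groups shared most of their range. The log2 fold change was -0.15 (SE 0.14, 95% interval -0.47 to 0.17, edgeR quasi-likelihood adjusted p = 1.00).

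At the level of single transcripts, the deposited table listed 59 transcripts of the 10 genes, of which 55 were above 0 and 31 could be tested. None of the 31 had an unadjusted p under 0.05 in the edgeR quasi-likelihood test, where 3.83% of all 25533 transcripts tested did and 0 passed adjustment. Hamp and Bmp6 had all their counts in 1 transcript each, and Fth1 and Ftl1 at least 98.8% and 98.1% in theirs. Trf was divided between the coding transcripts ENSMUST00000035158, with 50.3% to 73.1% of the counts, and ENSMUST00000112645, with 21.5% to 47.4%. Tfr2 was divided among 5 coding transcripts, led by ENSMUST00000031729 at 33.9% to 40.5% and ENSMUST00000198866 at 30.9% to 35.9%.

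Tfrc counts fell on a coding transcript and on one that keeps an intron and is not annotated as coding. The coding transcript ENSMUST00000023486 took 52.4%, 55.5%, 77.1% and 61.6% of the counts in the saline mice and 57.3%, 87.7%, 71.2% and 71.8% in the treated mice. The retained-intron transcript ENSMUST00000128285 took 40.7%, 43.2%, 19.9% and 36.6% and 41.5%, 10.4%, 26.7% and 25.8%. The groups overlapped for both. The log2 fold change was -0.12 (SE 0.20) for the coding transcript and -0.72 (SE 0.46) for the retained intron. Neither passed the edgeR quasi-likelihood test (adjusted p = 1.00 for both).

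**Figure D5:**
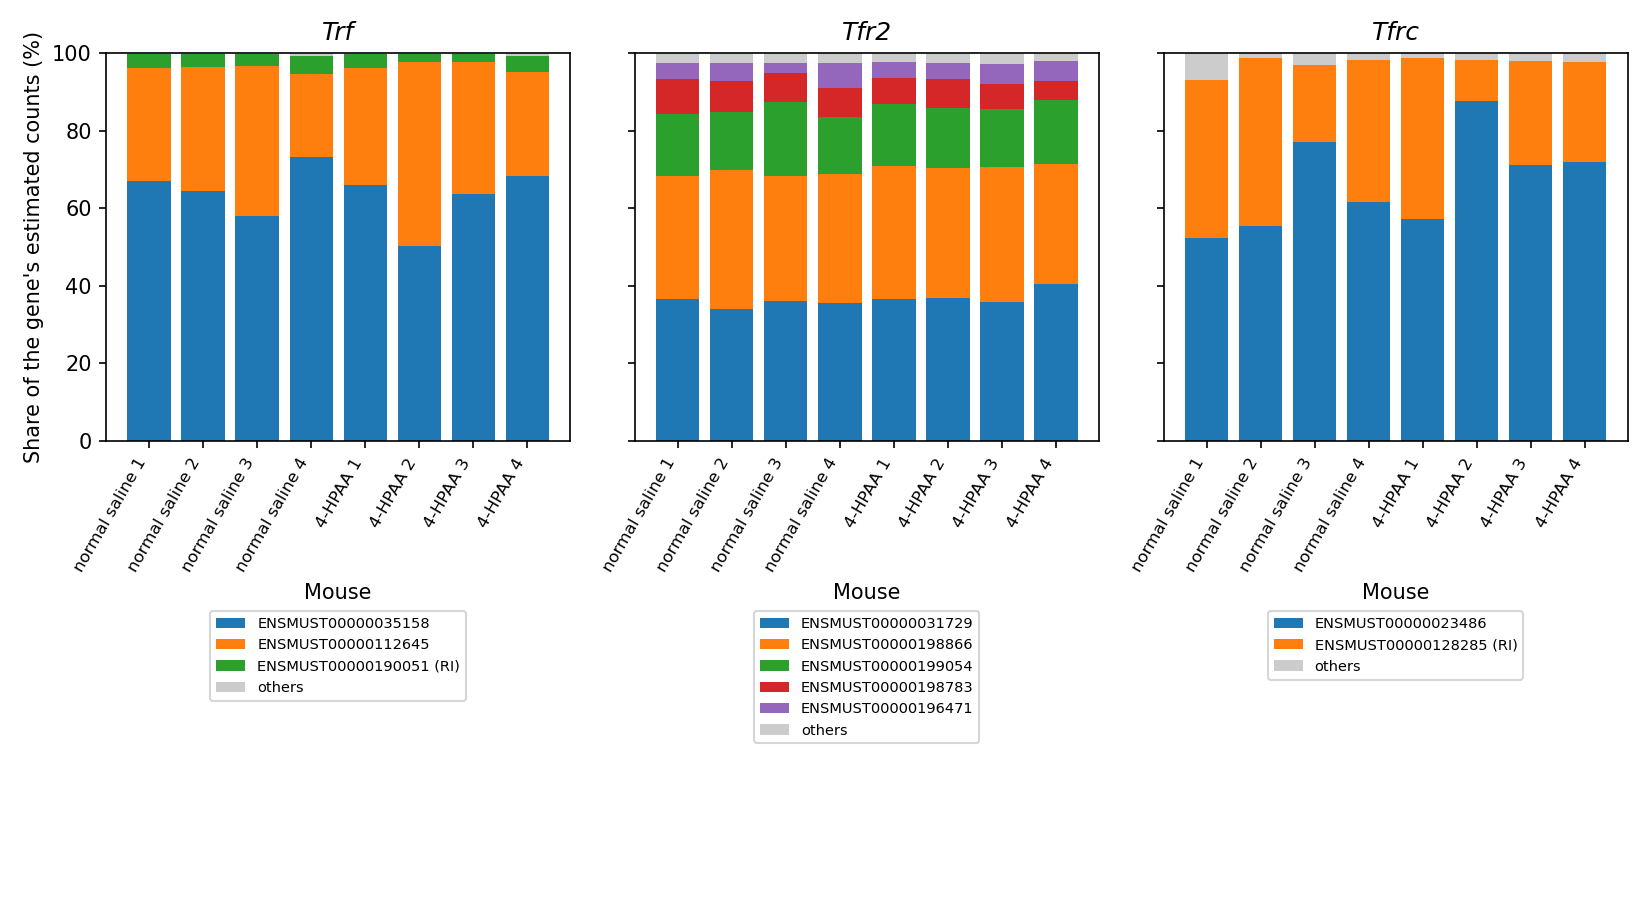
Share of each gene's estimated counts (percent) assigned to each transcript in each mouse, for Trf, Tfr2 and Tfrc; RI marks a retained intron, and transcripts with small shares are joined as others. The 2 leading Tfr2 transcripts keep similar shares in all 8 mice (33.9% to 40.5% and 30.9% to 35.9%). Smaller coding transcripts of Tfr2 vary more in proportion, such as ENSMUST00000198783 (4.88% to 8.84%) and ENSMUST00000196471 (2.71% to 6.54%). The coding transcript of Tfrc runs from 52.4% to 87.7%.

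Slc40a1, ferroportin, is the target that hepcidin removes as a protein. The gene lies at chr1:45908068-45926523, and its RNA stood at 131, 144, 153 and 113 CPM in the saline mice and 111, 135, 122 and 113 CPM in the treated mice. Of the saline mice, 2 lay above every treated mouse. The means were 136 ± 17.4 CPM and 120.3 ± 11.1 CPM (SD, n = 4 each), with a log2 fold change of -0.17 (SE 0.11, 95% interval -0.41 to 0.07, edgeR quasi-likelihood adjusted p = 1.00). Kupffer cells also make ferroportin. Slc40a1 was lowest in 4-HPAA replicate 1 (111 CPM), followed by normal saline replicate 4 and 4-HPAA replicate 4 (113 CPM each). The sums of Kupffer markers in these mice were 260.5, 127 and 122 CPM. The last 2 sums were the lowest of all mice, while that of 4-HPAA replicate 1 was not. The part of Kupffer cells in the level of Slc40a1 was not tested.

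The ferritin heavy chain Fth1, which oxidises iron for storage, was at 693, 810, 689 and 793 CPM with normal saline and 749, 787, 872 and 897 CPM with 4-HPAA. The 2 highest values were those of treated mice and the 2 lowest those of saline mice. At chr19:9980598-9985098, Fth1 had means of 746 ± 64.3 CPM and 826 ± 69.7 CPM (SD, n = 4 each), with a log2 fold change of 0.15 (SE 0.10, 95% interval -0.07 to 0.36, edgeR quasi-likelihood adjusted p = 1.00).

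The ferritin light chain Ftl1, at chr7:45457944-45459884, was at 1914, 2617, 2032 and 2682 CPM and 2207, 2134, 2199 and 2958 CPM in the same order. 4-HPAA replicate 4 was highest and stood well above the rest of its group. Its log2 fold change was 0.04 (SE 0.15, 95% interval -0.30 to 0.38, edgeR quasi-likelihood adjusted p = 1.00). Ftl1 shares 80.6% of its 31-base words with pseudogenes and Fth1 1.67%, and the pseudogenes were assigned 42 to 94 and 0 to 5 counts a library, which does not show how many reads of the pseudogenes were assigned to Ftl1.

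Compared per length, as TPM (counts divided by transcript length and scaled to a common total), the order by saline mean was Trf (10663 TPM), Ftl1 (3914), Hamp (1411), Fth1 (1312), Tfr2 (244), Hamp2 (103), Slc40a1 (67.0), Tfrc (12.3), Id1 (7.14) and Bmp6 (1.70). Trf and Ftl1 kept their places in every mouse, at 7999 to 12082 and 3376 to 4862 TPM. Hamp, at 68.7 to 2782 TPM, overlapped the ranges of Fth1, Tfr2, Hamp2 and Slc40a1, so its place in the order differed from mouse to mouse. Hamp2 (34.5 to 202 TPM) overlapped Slc40a1 (51.7 to 76.0), Id1 (2.11 to 16.0) overlapped Tfrc (6.96 to 15.9), and Bmp6 (1.11 to 2.43) overlapped Id1.

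Other genes of the pathway were read from 5 lists with 98 genes, of which 93 could be tested. None passed adjustment in the edgeR quasi-likelihood test, and 1 of 93 had an unadjusted p under 0.05 (background 1.75%). In the list for hepcidin signalling, 20 of 30 genes had a higher mean with 4-HPAA and 10 a lower one. Over all genes tested, 6489 were higher and 6394 lower. The list had a median log2 fold change of 0.06 and a median size of 0.08 (all genes, 0.07). The lowest was Acvr1, a BMP receptor, at -0.10 (SE 0.13). The co-receptor Hjv, the sensor partner Hfe and the protease Tmprss6, which restrains hepcidin, were at -0.05 (SE 0.12), -0.02 (SE 0.07) and -0.03 (SE 0.08). Those 3 were named after their values were seen, and Tmprss6 stayed between 392 and 452 CPM in all mice. On the interleukin-6 arm, Il6ra was at 0.11 (SE 0.15) and Socs3 at 0.37 (SE 0.31), also named after their values were seen.

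In the list for iron and heme transport, 12 of 26 genes had a higher mean and 14 a lower one. The ends were Lcn2, a siderophore-binding acute phase protein, at -0.76 (SE 0.44) and Heph, a ferroxidase, at 0.26 (SE 0.20). The Lcn2 value turned on normal saline replicate 1, with 17.6 CPM against 4.43 to 5.21 CPM in the other saline mice, and was -0.03 without it. Of 8 genes for iron sensing and ferritin control, 3 were higher and 5 lower, between -0.08 (SE 0.09) for Nfe2l2, the antioxidant response factor, and 0.05 (SE 0.08) for Pcbp1, an iron chaperone of ferritin.

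Among 20 genes of iron-sulfur cluster assembly, 14 had a higher mean and 6 a lower one. Iscu, the scaffold on which the clusters are built, was at 39.8, 46.0, 40.7 and 48.0 CPM in the saline mice and 48.9, 48.1, 50.6 and 59.0 CPM in the treated mice. It was the 1 listed gene with an unadjusted p under 0.05 and also the only one of the 93 whose groups did not overlap (background 1.2%), with a log2 fold change of 0.24 (SE 0.09, 95% interval 0.04 to 0.45, edgeR quasi-likelihood adjusted p = 1.00). The lowest of the list was Fdxr, the reductase that feeds electrons to the assembly, at -0.19 (SE 0.12). Of the 9 enzymes of heme synthesis, 1 was higher, Fech at 0.07 (SE 0.08). The other 8 were lower, with Uros lowest at -0.22 (SE 0.12), and the median was -0.06. The median size was 0.05 for iron-sulfur cluster assembly and 0.06 for heme synthesis (all genes, 0.07).

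The genes whose level over the 8 mice was most like that of Hamp, by Pearson r of log2 CPM among all other tested genes, were Epha2 (r = 0.96), Atoh8 (0.96), Esr1 (0.94), Tpst1 (0.94) and Socs5 (0.93). For example, the estrogen receptor gene Esr1 was at 66.4, 22.1, 30.9 and 60.2 CPM in the saline mice and 29.3, 33.6, 42 and 47.3 CPM in the treated mice. Smad7 ranked 43 by this measure, Id1 61 and Hamp2 263. For Id1 the most alike were Mrps31 (0.97), Pink1 (0.96), Id2 (0.96), Arg1 (0.96) and Lamb3 (0.96), and for Tfrc they were Ap4b1 (0.96), Cenpn (0.96), Nprl3 (0.93), Polrmt (0.92) and Ccndbp1 (0.92). These are the top of very many r values over only 8 libraries and are given as descriptions.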

How the data were processed

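Liver RNA of 4 mice with normal saline and 4 with 4-HPAA was sequenced as directional poly(A) libraries. The authors ran kallisto and deposited an estimated count per transcript and mouse, neither normalized nor pooled. Of the values above 0, 9.36% were whole. FastQC 0.11.9 and GRCm38.p6 stand in the submitters' processing notes. The study names NCBI annotations, yet the rows carry Ensembl identifiers. Kallisto divides reads shared by near-identical transcripts, which bears on Hamp, Hamp2 and Ftl1.

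Of 119414 transcripts, 116728 matched GENCODE M21 (GRCm38) and were summed to 35975 genes, then rounded. The 2686 unmatched transcripts held 0.703% to 1.06% of the counts and were left out. The filter asked for 10 counts in every library. edgeR 4.0.16 (quasi-likelihood F test, TMM, R 4.3.3) compared the groups with no covariate, with Benjamini-Hochberg adjustment over 12883 genes and a threshold of 0.05. The standard error is the log2 fold change divided by the root of F. CPM are TMM-normalized, with a prior count of 2 on the log2 scale. TPM used annotated transcript lengths. Total counts were 29559978 to 30673398 per library, so the spread between mice sets the precision except for genes near 10 counts. As alternatives, limma-voom (limma 3.58.1) and DESeq2 1.42.0 replaced edgeR, and the rest were RLE or total-count scaling, other filters, single libraries left out, both libraries rich in red cell markers left out, the replicate number as a block, copies summed and single transcripts. The fitting step was tested on simulated data.

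The genes, lists and tests were chosen with earlier results of these data known. Named genes are the 10 genes, the ends of each list and any listed gene with an unadjusted p under 0.05, the 5 genes most like Hamp, Id1 and Tfrc, Smad6, Smad7, and Hbb-bs, Ddx3y and Saa1 as examples of the marker lists. Names outside this are marked in the text. Ddx3y was at 72.1 to 89.5 CPM. The summed level of 8 stellate cell markers was 165 to 304 CPM, and that of 10 sex-biased liver genes 4454 to 8584 CPM. Erfe, Steap1, Ltf, Ftmt and Cybrd1 were below the filter. A result for 1 red cell marker is not reported here. Labels name the samples replicates and nothing says which mice were operated on together.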

Additional observations from a re-analysis of the deposited data

Results flagged for a closer look

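Within groups of 4, 14 of 142 groups examined had 1 library that stood apart from the other 3, by a gap that exceeded Dixon's 95% critical value. Chance flags about 1 in 20 groups, here 7.1, and the groups are not independent, since many hold red cell genes of the same library. Of the 10 genes, Ftl1 alone had such a library in its level: 4-HPAA replicate 4 was at 2958 CPM against 2134 to 2207 CPM in the rest of its group. Hamp was not among them, because its values were spread along the whole range.

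Normal saline replicate 2 stood apart for red cell genes and their neighbours in function, in CPM: Hbb-bs was at 1177 (others 71.6 to 174), Slc4a1 at 48.8 (others 0.0328 to 0.481), Car2, named after its values were seen, at 25.5 (others 4.01 to 4.12) and the summed red cell markers at 2674 (others 262 to 389). The same mouse had Hmox1 at 18.1 CPM (others 6.19 to 8.14) and Erfe at 0.309 CPM (others 0 to 0.0328). 4-HPAA replicate 4 stood apart for Hbb-bs at 336 CPM (others 31 to 46.4) and for the summed red cell markers at 751 CPM (others 164 to 176). Lcn2 was at 17.6 CPM in normal saline replicate 1 (others 4.43 to 5.21), and Saa1 at 45.8 CPM in normal saline replicate 3 (others 37.5 to 38.5).

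Minor transcripts gave 3 further cases, as percent of the gene's counts. ENSMUST00000211694 held 0.525% of Ftl1 in 4-HPAA replicate 1 (others 0.266% to 0.300%), ENSMUST00000199069 held 1.05% of Tfr2 in normal saline replicate 3 (others 1.14%), and ENSMUST00000168142 held 0.743% of Trf in normal saline replicate 4 (others 0.115% to 0.177%).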

How the results depend on the processing

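No alternative called any of the 10 genes or any listed gene. Their smallest adjusted p was 0.999 over 173 alternative values, of which 21 had the opposite sign, all in 5 of the genes, and the cause was not tested. The number of genes called over the whole table was 0, except 2 with DESeq2 and 0 to 1 with single libraries left out (1 without 4-HPAA replicate 1). Unadjusted p under 0.05 ran from 196 genes (without normal saline replicate 2) to 528 with no filter on low counts, where 22597 genes were tested.

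The log2 fold change of Hamp was 0.17 with limma-voom, that of Atoh8 0.10. Leaving out both libraries rich in red cell markers gave -0.81 for Id1, 0.04 for Tfr2, -0.03 for Ftl1, -0.04 for Bmp6, -0.05 for Smad7 and -0.12 for Id2, and Hamp was then at -1.18. The main single transcript of Tfr2 gave 0.07. With single libraries left out, Hamp ran from -0.98 to -0.05, Hamp2 from -1.17 to -0.36, Tfrc from -0.44 to -0.15, Tfr2 from -0.05 to 0.02, Ftl1 from -0.09 to 0.12, Bmp6 from -0.10 to 0.25, Id1 from -0.52 (without 4-HPAA replicate 4) to 0.63, Atoh8 from -0.38 to 0.30, Pcbp1 from 0.00 to 0.11 and Nfe2l2 from -0.11 to 0.00. The r of Hamp with Id1 ran from 0.81 to 0.90, with adjusted exact permutation p of 0.0579, 0.115 and 0.0865 without normal saline replicates 1, 2 and 4 and 0.0508 without 4-HPAA replicate 3. The r of Hamp with Tfrc ran from -0.86 to 0.13, the last without normal saline replicate 2. The r of Id1 with Smad7 stayed between 0.92 and 0.97.

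Both groups carry replicate numbers 1 to 4. Deviations of same-numbered mice over 12883 genes correlated at 0.0398, 0.168, 0.268 and 0.48. Nothing read here ties same-numbered mice together and the first value is under 0.1, so the numbers were not taken as pairs. Not every mouse correlated best with its own number (normal saline replicate 3 with 4-HPAA replicate 2, 0.466). With the replicate block 0 genes were called (336 with an unadjusted p under 0.05), and the log2 fold change was 0.18 for Hamp, -0.54 for Hamp2 and 0.07 for Atoh8. Id3 and Socs3 kept nearly the same difference with a smaller error, at 0.66 (SE 0.20, without the block 0.36) and 0.35 (SE 0.13, without the block 0.31). For Hamp the error was larger (SE 0.91, without the block 0.84).

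Of the 10 genes, Id1 and Bmp6 rested on the fewest counts, and Erfe was below the filter. For Hamp the spread of the 4 mice a group set the width of the interval.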
